A study of Mus musculus with 16 samples.

Results

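The 10 genes described here encode the troponins and tropomyosins of striated muscle, the proteins that switch the thin filament on and off. They were chosen by symbol, as Tnnt1, Tnnt2, Tnnt3, Tnni1, Tnni2, Tnnc1, Tnnc2, Tpm1, Tpm2 and Tpm3, and are 10 of the 48432 gene identifiers in the deposited table. All 10 had an estimate in every library, and all 10 passed the filter on low counts. RNA sequencing compared mouse C2C12 myotubes under electrical pulse stimulation (EPS) with unstimulated myotubes. C2C12 is an established myoblast line, here used at passage 4 to 8 and differentiated for 5 days in low-serum medium, in culture without nerve. The EPS group (4 libraries) received pulses of 6 ms at 1 Hz and 2.75 V/mm, a duty cycle of 0.6%, with the polarity reversed at 0.5 Hz, and the control group (4 libraries) was differentiated in the same way and not stimulated. The sources used here do not give how long the current ran. Whether replicate libraries stem from different cultures is likewise unstated, and the p-values then refer to the spread among these libraries, which may be technical.

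Contraction of striated muscle is gated at the thin filament, a polymer of actin along which tropomyosin coiled coils run end to end. At rest tropomyosin hinders the binding of myosin; calcium that binds troponin C releases the hold of troponin I on actin, and troponin T anchors the complex on tropomyosin. Each subunit has paralogues that are typical of fast fibres (Tnnt3, Tnni2, Tnnc2) or of slow fibres (Tnnt1, Tnni1, Tnnc1), and Tnnt2 is the cardiac form that developing skeletal muscle also uses. Among the tropomyosins, Tpm1 is the main alpha form of fast fibres and heart, Tpm3 the alpha form of slow fibres, and Tpm2 the beta form.

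The libraries held 14.7 to 20.7 M fragments in EPS and 12.6 to 20.7 M in control, apart from control replicate 2 with 0.354 M. Myotube markers were abundant in both groups. Of 10 such markers, 9 were tested and Ttn was skipped by the authors' software for excess fragments; their summed level was 14263 to 18870.4 CPM (fragments scaled to library size with TMM factors) in EPS and 21902 to 26138 CPM in control. All 9 had a negative fold change, against 49.1% of all tested genes, and edgeR called 0 of 9, against 0.758% lower. At an unadjusted p of 0.05, 8 of 9 were lower (6.33% of all genes), and DESeq2 called 4 of 9 (1.95%). With the replicate number as a block edgeR called 6 of 9 as lower (4.78%). In such a bulk sample, fewer myotubes and less transcript per myotube cannot be told apart, and this applies to every result below. Sums over markers of undifferentiated myoblasts (898 to 1049 CPM in EPS, 858 to 1120.3 CPM in control), of cycling cells (296 to 708 CPM in EPS, 402 to 885 CPM in control), of fibroblasts (409.6 to 847 CPM in EPS, 645 to 1306 CPM in control) and of cardiac muscle (43.9 to 143 CPM in EPS, 70.4 to 145 CPM in control) overlapped between the groups. Overlapping sums do not show that single markers were unchanged. Of the tested markers, 6 of 7 for myoblasts, 6 of 6 for cycling cells and 2 of 3 for cardiac muscle had negative fold changes. EdgeR without the block called 0 in these 3 lists. With the block it called only the cardiac marker Myh6, as lower (adjusted p = 0.0492). Single fibroblast markers went both ways, and edgeR without the block called 0 of the 4 tested. With the block, edgeR called Pdgfra higher (adjusted p = 0.0141) and Dcn and Postn lower (0.0219 and 0.0109). Pdgfra averaged 16.5 CPM in EPS and 8.17 CPM in control. Smooth muscle markers, led by Acta2, summed to 799.7 to 1634 CPM in EPS and 2537 to 2855 CPM in control. All 4 adipocyte markers and the heart genes Nppa, Myl7 and Ryr2 stayed under 1 CPM in the 7 deep libraries; in control replicate 2 a count of 0 allows up to 8.68 CPM. The part of cell make-up in the results was not tested.

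All 10 genes had a lower mean in EPS than in control, yet none passed the genome-wide threshold. In edgeR's quasi-likelihood test, adjusted over all 13987 genes tested, 0 of 10 were called at an adjusted p of 0.05, against 3.06% of all tested genes (2.30% higher and 0.758% lower in EPS). At an unadjusted p of 0.05, 8 of 10 were lower, against 6.33% of all genes, and DESeq2 called 5 of 10 lower (Tnnt1, Tnnt2, Tnnt3, Tnni2 and Tpm2), against 1.95%. The labels do not say what a replicate number marks, and the numbers were taken from these data to pair EPS with control libraries. Every p-value with the block, here and below, holds only under that pairing. As the same expression data gave the pairing, these p-values may be too small. With the number as a block edgeR called 8 of 10 as lower, all except Tpm1 and Tpm3, against 4.78% of all genes lower and 7.31% higher. The same 8 were called, against 8.23% of all genes, when the pair with the shallow control library was also left out. The groups did not overlap for 8 of the 10, all except Tnni1 and Tpm3, against 4.83% of all genes. All 10 log2 fold changes were below 0, against 49.1% of all genes, and their median was -0.67, where that of all tested genes was 0.01. The 10 genes were chosen with earlier results of these data known, and they varied together over the libraries. The counts set against shares of all genes are therefore descriptions.

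Sequences around the start sites are shown for 4 of these genes as a description. The part of these sequences in the transcript levels was not tested. Tnnt1 and Tpm3 have the most and the least negative fold change of the 10, and Tnnt2 and Tnnc1 hold 2 of the 3 MCAT matches. The windows run from 250 bases before to 50 bases after a RefSeq transcript start in GRCm38.p6 (the mm10 build), 5′ to 3′ on the gene's strand. Capitals mark matches to the E-box CANNTG, the letters bound by myogenic basic helix-loop-helix factors, and to the MCAT element CATTCC or its reverse complement GGAATG, the letters bound by TEAD factors. They lie at chr7:4515926-4516225 (minus strand), chr1:135836084-135836383 (plus), chr14:31208062-31208361 (plus) and chr3:90072401-90072700 (plus).
Tnnt1: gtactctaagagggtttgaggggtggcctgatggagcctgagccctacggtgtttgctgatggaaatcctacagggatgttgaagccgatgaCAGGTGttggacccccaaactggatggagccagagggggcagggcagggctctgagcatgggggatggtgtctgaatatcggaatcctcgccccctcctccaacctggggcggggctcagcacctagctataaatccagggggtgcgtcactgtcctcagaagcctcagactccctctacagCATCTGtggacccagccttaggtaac
Tnnt2: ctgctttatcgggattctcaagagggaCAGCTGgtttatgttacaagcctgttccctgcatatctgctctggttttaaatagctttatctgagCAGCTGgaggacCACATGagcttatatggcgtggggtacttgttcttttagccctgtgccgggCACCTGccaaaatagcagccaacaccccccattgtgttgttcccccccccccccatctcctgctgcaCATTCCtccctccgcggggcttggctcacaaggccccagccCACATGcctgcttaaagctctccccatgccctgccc
Tnnc1: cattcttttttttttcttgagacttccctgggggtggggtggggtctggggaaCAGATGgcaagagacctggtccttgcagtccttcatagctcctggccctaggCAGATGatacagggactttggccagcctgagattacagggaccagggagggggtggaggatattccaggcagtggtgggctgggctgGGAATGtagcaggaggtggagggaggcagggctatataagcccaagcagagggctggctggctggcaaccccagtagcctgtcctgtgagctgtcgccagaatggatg
Tpm3: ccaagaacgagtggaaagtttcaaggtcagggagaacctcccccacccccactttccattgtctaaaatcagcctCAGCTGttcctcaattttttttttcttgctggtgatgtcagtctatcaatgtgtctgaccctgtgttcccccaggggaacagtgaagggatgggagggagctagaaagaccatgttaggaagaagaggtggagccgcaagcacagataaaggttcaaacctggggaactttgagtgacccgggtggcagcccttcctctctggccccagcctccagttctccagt
RefSeq gave 11 windows for 8 of the 10 genes, and Tnnt3 and Tnni2 had none. Tnnt2, Tnni1 and Tpm3 had 2 windows each. Those of Tnni1 overlap and share E-box matches, so the 11 windows are not independent. An E-box was present in 11 of 11 windows, against 72.3% of the 32851 promoter windows of the same length in the mouse table, and MCAT in 3 of 11 (Tnnt2, Tnnc1 and Tpm1), against 14.7%. Both strands were searched, and no E-box match overlapped an MCAT match. The MEF2 motif was in 0 of 11 windows, against 1.86% of all windows. Tnnt2 had 5 E-box matches in the window shown and Tpm3 had 1. These are matches of letters and not binding sites.

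Troponin T, the subunit that holds the complex on tropomyosin, is encoded by 3 of the genes. The slow form Tnnt1 (ENSMUSG00000064179.13, chromosome 7, 4504570 to 4516382, minus strand) was at 416, 324, 625 and 625 CPM in EPS replicates 1 to 4, against 857, 1264, 957 and 893 CPM in control replicates 1 to 4. Every EPS library lay below every control library, and EPS replicates 1 and 2 lay below 3 and 4. Its log2 fold change was -0.99 (SE 0.25, edgeR adjusted p = 0.0601), the most negative of the 10 genes, and -1.02 with the replicate block (adjusted p = 0.0146). It also passed the threshold without EPS replicate 3 (adjusted p = 0.0472) or EPS replicate 4 (0.0475). The cardiac and embryonic form Tnnt2 (ENSMUSG00000026414.13, chromosome 1, 135836354 to 135852260, plus strand) was at 1082, 961, 1196 and 1277 CPM in EPS, against 1729.6, 2003, 1708 and 1627 CPM in control. The groups were again apart, with a log2 fold change of -0.64 (SE 0.17, edgeR adjusted p = 0.0760; with the block -0.65, adjusted p = 0.0204). The fast form Tnnt3 (ENSMUSG00000061723.18, chromosome 7, 142498836 to 142516009, plus strand) was at 1031, 799, 1369 and 1372 CPM in EPS, against 1956, 2688, 1843 and 1689 CPM in control. Its groups did not overlap, and the log2 fold change was -0.84 (SE 0.24, edgeR adjusted p = 0.0883; with the block -0.84, adjusted p = 0.0339). The highest control value of all 3 came from the shallow replicate 2, where 445, 705 and 946 fragments were counted for Tnnt1, Tnnt2 and Tnnt3.

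**Figure D1:**
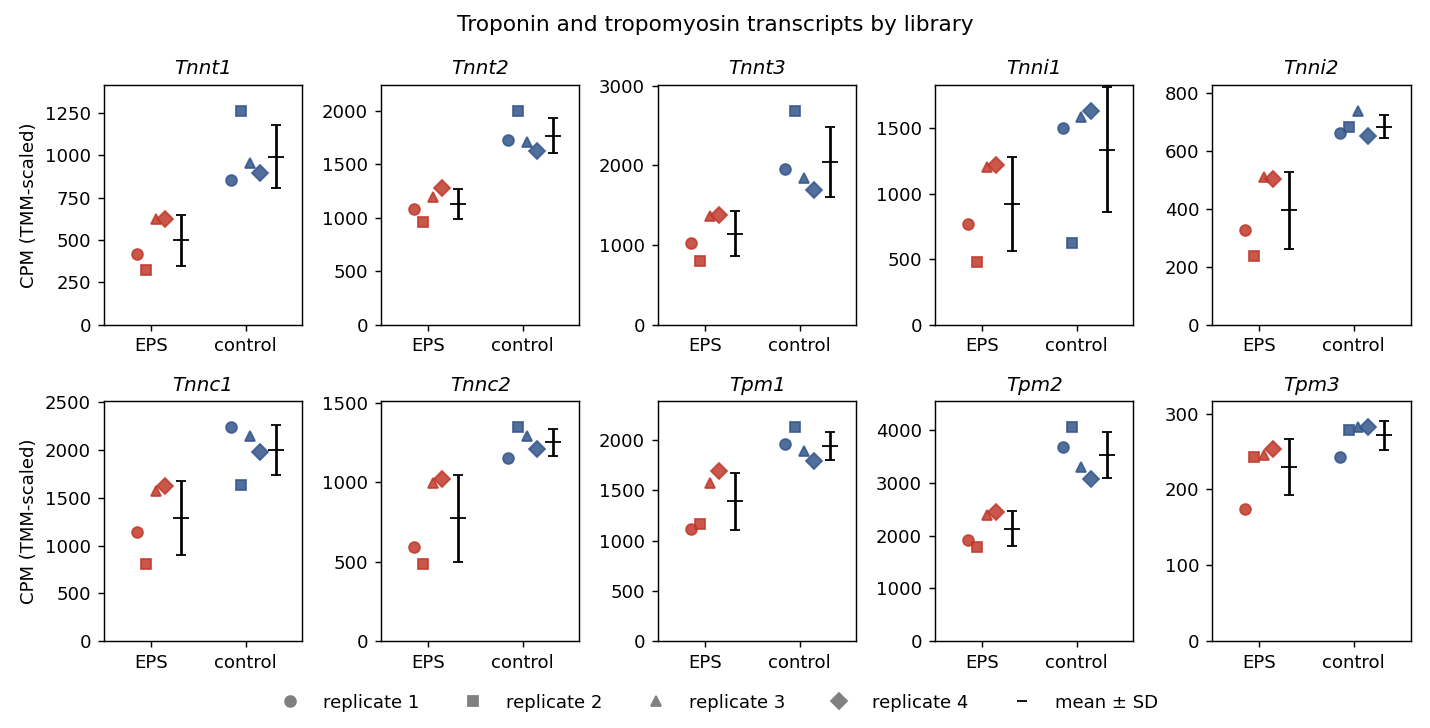
Level of each of the 10 transcripts in CPM (TMM-scaled fragments, linear axis from 0) in the EPS libraries (left, red) and the control libraries (right, blue); marker shape gives the replicate number, and bars are the mean ± SD of 4 libraries. The groups are apart for 8 genes, and for Tnni1 control replicate 2 at 625 CPM falls among the EPS libraries.

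Troponin I, the subunit that holds back the interaction of actin and myosin, is encoded by a slow and a fast gene here. Slow Tnni1 (ENSMUSG00000026418.16, chromosome 1, 135779434 to 135810989, plus strand) was at 771, 482, 1204 and 1221 CPM in EPS, against 1500.2, 625, 1586 and 1634 CPM in control. Control replicate 2 fell between the EPS libraries, and the other 3 controls lay above all of them. That value rests on 220 fragments, with an exact 95% Poisson interval of 545 to 713 CPM that covers counting error only, so counting error does not reach the 1500.2 CPM of the next control. The log2 fold change was -0.54 (SE 0.36, edgeR adjusted p = 0.456), -0.78 without control replicate 2 (adjusted p = 0.198), -0.34 without EPS replicate 2 (adjusted p = 0.683) and -0.54 with the block (SE 0.15, adjusted p = 0.0391). Fast Tnni2 (ENSMUSG00000031097.15, chromosome 7, 142441808 to 142444410, plus strand) was at 328, 239, 510.5 and 504 CPM in EPS, against 662, 682, 740.1 and 652 CPM in control. All 4 EPS libraries were below the lowest control, and the control libraries were close together (mean 684 CPM ± 39.4, SD, n = 4) while EPS spread more widely (mean 395 CPM ± 134, SD, n = 4). The log2 fold change was -0.79 (SE 0.24, edgeR adjusted p = 0.113; with the block -0.85, adjusted p = 0.0159).

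Troponin C, the calcium sensor, had the most abundant transcripts of the 3 subunits per length of transcript. Tnnc1, the form of slow muscle and heart (ENSMUSG00000091898.8, chromosome 14, 31208312 to 31211729, plus strand), was at 1147, 804, 1574 and 1618 CPM in EPS, against 2238, 1636, 2147 and 1977 CPM in control. EPS replicate 4 lay just under control replicate 2, and the groups did not overlap, with a log2 fold change of -0.64 (SE 0.24, edgeR adjusted p = 0.193; with the block -0.68, adjusted p = 0.0224). Fast Tnnc2 (ENSMUSG00000017300.9, chromosome 2, 164777161 to 164779967, minus strand) was at 591, 486, 996 and 1019 CPM in EPS, against 1154, 1347, 1293 and 1211 CPM in control. Here too the groups were apart, with a log2 fold change of -0.69 (SE 0.25, edgeR adjusted p = 0.171; with the block -0.76, adjusted p = 0.0340). Both genes overlap another gene on the opposite strand, and without a stated strand setting fragments there cannot be assigned with certainty. Nisch, which overlaps Tnnc1, had a log2 fold change of 0.03 (edgeR adjusted p = 0.958), and Ube2c, which overlaps Tnnc2, averaged 16.1 CPM ± 10.2 in EPS and 20.8 CPM ± 10.2 in control (SD, n = 4 each). Tnnt3 overlaps Prr33, which was at or under 0.561 CPM in the 7 deep libraries and had no fragment in control replicate 2.

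The tropomyosins, the rod proteins that block or free the myosin sites of actin, ranged more widely in their fold changes. Beta tropomyosin Tpm2 (ENSMUSG00000028464.16, chromosome 4, 43514711 to 43523765, minus strand) had the most fragments of the 10 genes, with 1914, 1784, 2382 and 2437 CPM in EPS, against 3681, 4049, 3299 and 3061 CPM in control. The groups were apart, and the log2 fold change was -0.73 (SE 0.20, edgeR adjusted p = 0.0760; with the block -0.73, adjusted p = 0.0200). Tpm1 (ENSMUSG00000032366.15, chromosome 9, 67022590 to 67049406, minus strand) was at 1120.1, 1170.2, 1576 and 1691 CPM in EPS, against 1958, 2128, 1889 and 1796 CPM in control. Its groups did not overlap either, but the gene was not called with or without the block (log2 fold change -0.48, SE 0.19, edgeR adjusted p = 0.216; with the block -0.50, adjusted p = 0.0771). Tpm3 (ENSMUSG00000027940.18, chromosome 3, 90072649 to 90100902, plus strand) was at 174, 243, 246 and 253 CPM in EPS, against 243, 278, 282 and 282 CPM in control. Control replicate 1 lay below EPS replicates 3 and 4, and the log2 fold change of -0.24 (SE 0.17, edgeR adjusted p = 0.473; with the block -0.26, adjusted p = 0.217) was the least negative of the 10; without EPS replicate 1 it was -0.13. Tpm1 and Tpm3 also give cytoplasmic tropomyosins by other promoters and splicing, and a gene-level table adds all isoforms. The intronless copy Tpm3-rs7 (chromosome 14, 113314608 to 113316754, plus strand) averaged 100.2 CPM ± 19.0 in EPS and 128 CPM ± 44.9 in control (SD, n = 4 each), so the split of fragments between it and Tpm3 is uncertain.

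**Figure D2:**
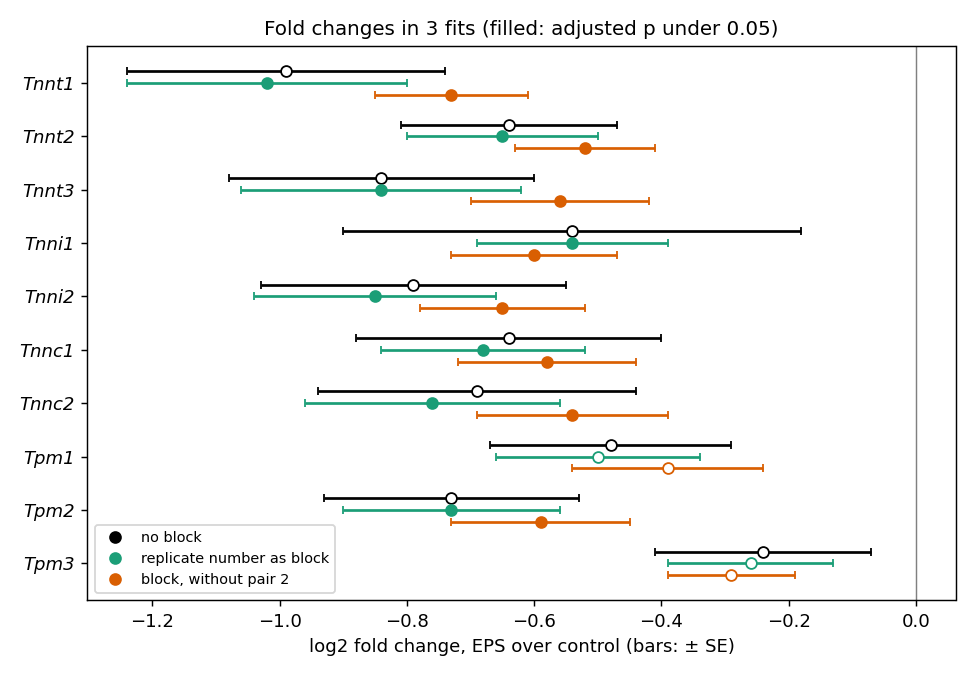
Log2 fold change of EPS over control for each gene (points, with ± SE) in edgeR's fit without the replicate number (black), with it as a block (green) and with the block and without pair 2 (orange); filled points passed an adjusted p of 0.05 over all genes. All points lie below 0, none of the black points is filled, and Tpm1 and Tpm3 are open in all 3 fits.

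Each of the 10 genes was lower in the EPS library than in the control library of the same number in 4 of 4 pairs, a pattern seen in 15.8% of all tested genes. The differences were not of 1 size over the pairs. The median of the 10 differences in log2 CPM was -0.95 in pair 1, -1.12 in pair 2, -0.44 in pair 3 and -0.31 in pair 4, where the median over all tested genes was 0.01, 0.28, 0.01 and 0.00. Pair 2 holds the shallow control library. For Tnnt1 the 4 differences were -1.04, -1.96, -0.62 and -0.52, and for Tpm1 they were -0.81, -0.86, -0.26 and -0.09. Tnni1 and Tpm3 did not have their most negative difference in pair 2, as the other 8 genes did; Tnni1 had -0.96, -0.38, -0.40 and -0.42, and Tpm3 had -0.48, -0.20, -0.20 and -0.16.

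The same libraries differed in how log2 CPM went with transcript length. Across genes, Pearson's r between log2 transcript length and a library's deviation from each gene's mean was 0.160, 0.212, -0.288 and -0.247 for EPS replicates 1 to 4, and -0.033, 0.113, -0.198 and -0.192 for control replicates 1 to 4. These are descriptions, as genes are not independent replicates. With offsets for transcript length and GC content the fold changes of the 10 genes were more negative, from -1.44 (Tnnt1) to -0.53 (Tpm3), with a median of -1.04, while the median of all genes moved to -0.12. None of the 10 was called with these offsets, where edgeR called 224 of all 13987 genes lower. With offsets and the block 2 were called (Tnnt2, edgeR adjusted p = 0.0408, and Tnni1, adjusted p = 0.0178), where 710 of all genes were lower. The part of transcript length in the differences between pairs was not tested.

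**Figure D3:**
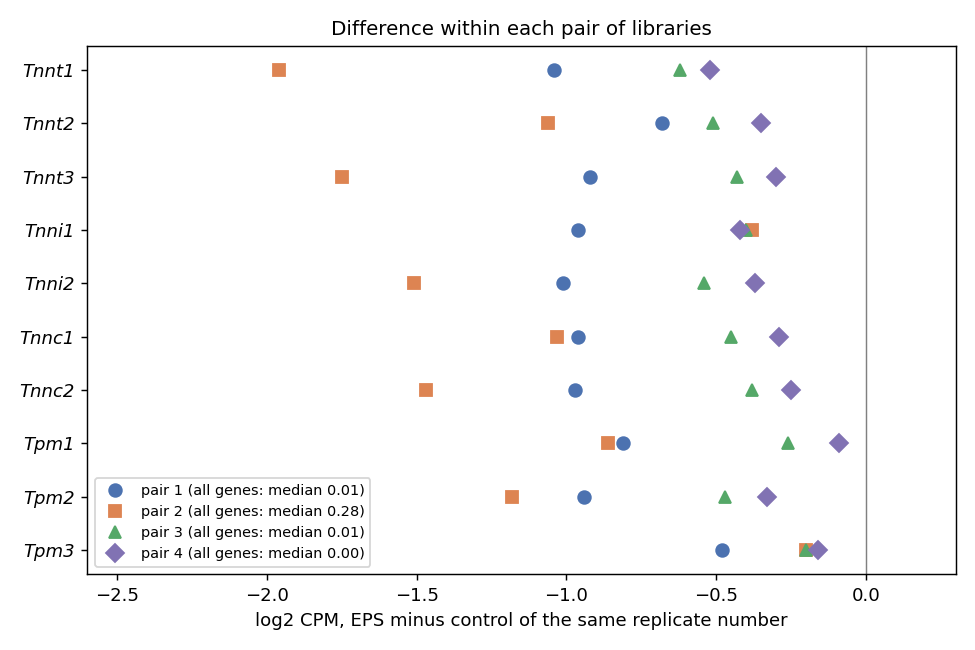
Difference in log2 CPM between the EPS and the control library of the same replicate number (x axis) for each gene (y axis), with 1 marker per pair; the legend gives each pair's median over all tested genes. All 40 differences are below 0, and for 8 of the 10 genes pairs 1 and 2 lie further from 0 than pairs 3 and 4; Tnni1 and Tpm3 are the exceptions in pair 2.

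Per length of transcript, the deposited FPKM values (fragments scaled to transcript length and library size) put troponin C first and Tpm3 last in both groups. Tnnc1 averaged 1499 FPKM ± 432 in EPS and 2374 FPKM ± 321 in control, and Tnnc2 averaged 882 FPKM ± 291 in EPS and 1499 FPKM ± 228 in control (SD, n = 4 each). Tpm3 averaged 107 FPKM ± 21.1 in EPS and 131 FPKM ± 14.1 in control, and its range lay below that of every other member in both groups. Between these ends the order in EPS was Tpm2, Tpm1, Tnni1, Tnnt3, Tnnt2, Tnni2 and Tnnt1, from 767 FPKM ± 64.4 to 277 FPKM ± 50.8. In control it was Tpm2, Tnnt3, Tnni1, Tpm1, Tnnt2, Tnnt1 and Tnni2, from 1317 FPKM ± 359.7 to 612 FPKM ± 109. Neighbours in the order overlapped in range, except Tnnt3 over Tnnt2, Tnnt2 over Tnni2 and Tnnt1 over Tpm3 in EPS, and Tnnc1 over Tnnc2 and Tnni2 over Tpm3 in control. Tnni1 and Tnnt3, which are neighbours in both groups, each led in 2 of 4 libraries.

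By the same FPKM values, each subunit was a mixture of forms in both groups. Tnnt3 made up 45.2% ± 3.40 of troponin T transcripts in EPS and 45.1% ± 2.91 in control, Tnnt2 made up 34.2% ± 2.97 in EPS and 30.2% ± 1.93 in control, and Tnnt1 made up 20.6% ± 2.78 in EPS and 24.7% ± 2.55 in control (SD, n = 4 each). The slow forms led the other subunits, with Tnni1 at 66.6% ± 2.98 of troponin I in EPS and 62.8% ± 8.16 in control, and Tnnc1 at 63.2% ± 1.64 of troponin C in EPS and 61.3% ± 4.56 in control. Among the 3 tropomyosins Tpm2 held 48.6% ± 2.09 in EPS and 52.9% ± 2.11 in control, Tpm1 44.7% ± 1.17 in EPS and 41.7% ± 1.79 in control, and Tpm3 6.73% ± 1.03 in EPS and 5.43% ± 0.921 in control.

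Ratios between paralogues within a library ask whether EPS moved fast, slow and developmental forms unequally, and scaling between libraries cancels in them. A relation to transcript length that differs between libraries does not cancel. The longest transcript has 3330 bases for Tnnt2, 1059 for Tnnt1 and 1079 for Tnnt3. None of the 8 ratios passed (exact two-sided permutation test over libraries, smallest possible p 0.0286, adjusted over the 8). At least 5 of the 8 would have to separate completely for any to pass after adjustment. The log2 ratio of fast Tnnt3 to slow Tnnt1 averaged 1.22 ± 0.10 in EPS and 1.04 ± 0.13 in control (SD, n = 4 each), a difference of 0.18 (exact p = 0.114, adjusted p = 0.229). Tnnt2 over Tnnt1 averaged 1.23 ± 0.30 in EPS and 0.84 ± 0.14 in control, with 1.38, 1.57, 0.94 and 1.03 in EPS and 1.01, 0.66, 0.84 and 0.86 in control (difference 0.39, exact permutation p = 0.0571, adjusted 0.152, higher in 4 of 4 pairs). Only EPS replicate 3 fell inside the range of the control libraries there. With length and GC offsets the difference was 0.29 for Tnnt2 over Tnnt1, and it stayed at 0.18 for Tnnt3 over Tnnt1.

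The fast to slow ratios of troponin I and troponin C had small or library-dependent differences. Tnni2 over Tnni1 averaged -1.19 ± 0.12 in EPS and -0.87 ± 0.67 in control (exact permutation p = 0.543), and the difference of -0.32 rests on control replicate 2, whose ratio was 0.13 beside -1.32 to -1.10 in the other controls; without it the difference was 0.01. Tnnc2 over Tnnc1 averaged -0.75 ± 0.14 in EPS and -0.67 ± 0.28 in control, a difference of -0.08 (exact permutation p = 0.771) that was 0.05 without control replicate 2. Tnnt2 over Tnnt3 differed by 0.20 (exact permutation p = 0.229), and by 0.11 with length and GC offsets. In the tropomyosins, Tpm2 over Tpm3 averaged 3.22 ± 0.25 in EPS and 3.69 ± 0.24 in control (difference -0.47, exact permutation p = 0.0571, adjusted 0.152), and Tpm1 over Tpm2 averaged -0.63 ± 0.10 in EPS and -0.85 ± 0.08 in control (difference 0.23, exact permutation p = 0.0571, adjusted 0.152), each in the same direction in 4 of 4 pairs. Tpm1 over Tpm3 differed by -0.24 (exact permutation p = 0.171). A test by pairs cannot pass with 4 pairs, as its smallest exact sign-flip p is 0.125.

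**Figure D4:**
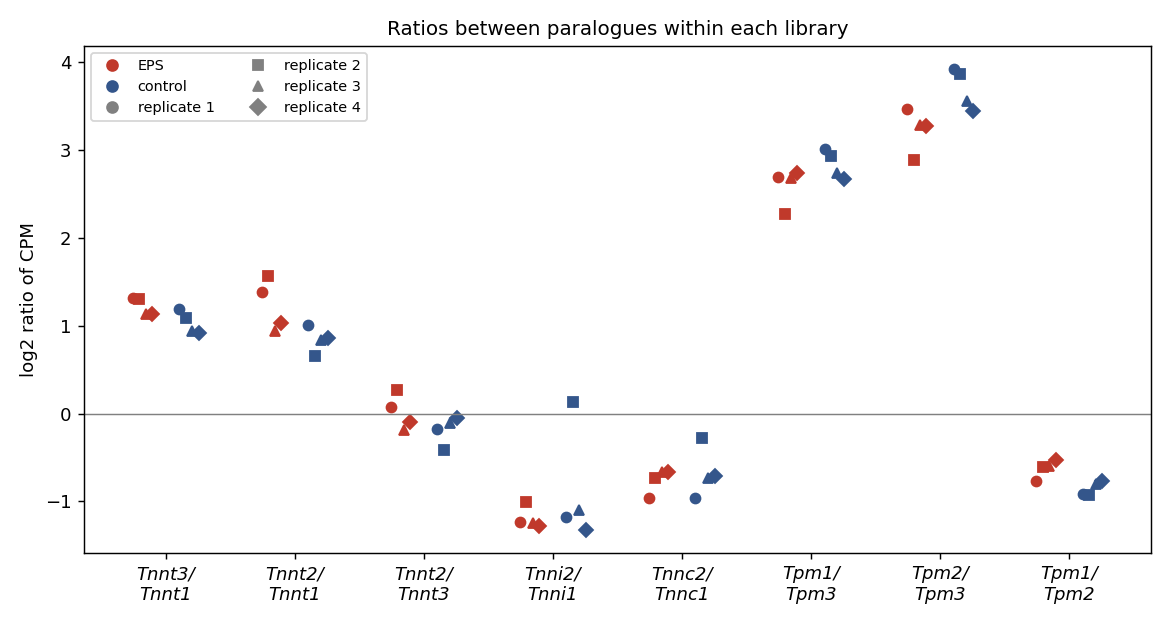
Log2 ratio of CPM between 2 paralogues (y axis) in each EPS library (red, left of each pair of columns) and control library (blue, right); marker shape gives the replicate number. The groups overlap in all 8 ratios, and control replicate 2 stands apart in Tnni2 over Tnni1 at 0.13.

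Other genes of the sarcomere and its control were set beside the 10, grouped by role. Over all tested genes, edgeR called 0.758% lower, DESeq2 1.95%, and edgeR with the block 4.78% lower and 7.31% higher. At an unadjusted p of 0.05, 6.33% were lower by edgeR. Of 18 other thin-filament genes, all 18 were tested and 14 had a negative log2 fold change, against 49.1% of all tested genes. The list's median log2 fold change was -0.41. By edgeR 2 fell and 16 did not pass (6 lower with the block). The 2 were Acta2, alpha actin of smooth muscle that immature myotubes also make, with 651, 1021, 1198 and 1369 CPM in EPS, against 2252, 2313, 2181 and 2402 CPM in control (log2 fold change -1.11, SE 0.23, edgeR adjusted p = 0.0328), and Klhl41, a partner of nebulin, with 376 CPM ± 17.9 in EPS and 597 CPM ± 53.9 in control (log2 fold change -0.66, SE 0.15, edgeR adjusted p = 0.0414). Both calls were fragile: Acta2 was lost in 5 of 8 fits that left out 1 library (those without EPS replicate 1 and without each control; edgeR adjusted p up to 0.109), and Klhl41 was lost in 7 of 8 such fits, all but that without control replicate 2 (up to 0.143). The relatives outside the chosen 10 were tropomyosin Tpm4, with 323 CPM ± 155 in EPS and 456 CPM ± 170.3 in control (log2 fold change -0.51, edgeR adjusted p = 0.502; with the block adjusted p = 0.0237), and cardiac Tnni3, with 2.47 CPM ± 1.03 in EPS and 5.37 CPM ± 4.04 in control.

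Thick-filament and calcium-handling genes ranged from -2.03 (Myh7b) to 0.26 (Atp2a2, a calcium pump) in log2 fold change, beside -0.99 to -0.54 for the 7 troponins. Of 10 tested fast-type genes 1 fell and 9 did not pass (8 lower with the block, median log2 fold change -0.80), and of 9 tested slow-type genes 1 fell and 8 did not pass (3 lower with the block, median -0.58). The 2 were Mybpc2, fast myosin-binding protein C (log2 fold change -0.84, SE 0.18, edgeR adjusted p = 0.0349; lost in 4 of 8 such fits, without EPS replicate 1 and without control replicates 1, 3 and 4, at up to 0.140), and the slow myosin Myh7b (-2.03, SE 0.31, edgeR adjusted p = 0.00778, called in all 8 fits that left out 1 library), which overlaps Trpc4ap on the opposite strand. All 4 developmental thick-filament genes had negative values (median -0.57), with 0 called by edgeR (2 at an unadjusted p of 0.05, 1 with DESeq2) and 4 with the block; the most abundant was embryonic myosin Myh3 at 5115 CPM ± 891 in EPS and 7252 CPM ± 432 in control (edgeR adjusted p = 0.214; with the block adjusted p = 0.0388). These counts describe the lists, and no list was tested against another.

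The remaining lists hold regulators of transcription and splicing, and enzymes reported to act on thin-filament proteins. Of 23 tested transcription factors of muscle and fibre type 1 fell and 22 did not pass (2 higher and 6 lower with the block); the list had a median of -0.27 on the log2 scale. That was Mef2c, a partner of the myogenic factors, with a log2 fold change of -0.91 (SE 0.18, edgeR adjusted p = 0.0287; lost in the same 4 fits as Mybpc2, at up to 0.127, and at 0.0510 with length and GC offsets). A further list held 15 splicing factors, chosen for a role in the splicing of troponin T and tropomyosin transcripts that was not tested here. Of these 15, 0 were called by edgeR (1 lower at an unadjusted p of 0.05, with DESeq2 and with the block), with a median of -0.09. The most abundant, Qk, was at 663 CPM ± 159 in EPS and 775 CPM ± 104 in control (edgeR adjusted p = 0.605). Of 8 ubiquitin ligases and proteases reported to act on thin-filament proteins 1 fell and 7 did not pass (1 higher and 1 lower with the block), with a median of -0.17. It was the muscle calpain Capn3 (log2 fold change -0.81, SE 0.19, edgeR adjusted p = 0.0483), which shares its locus with Ganc and was lost in 6 of 8 fits without 1 library (adjusted p up to 0.168).

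**Figure D5:**
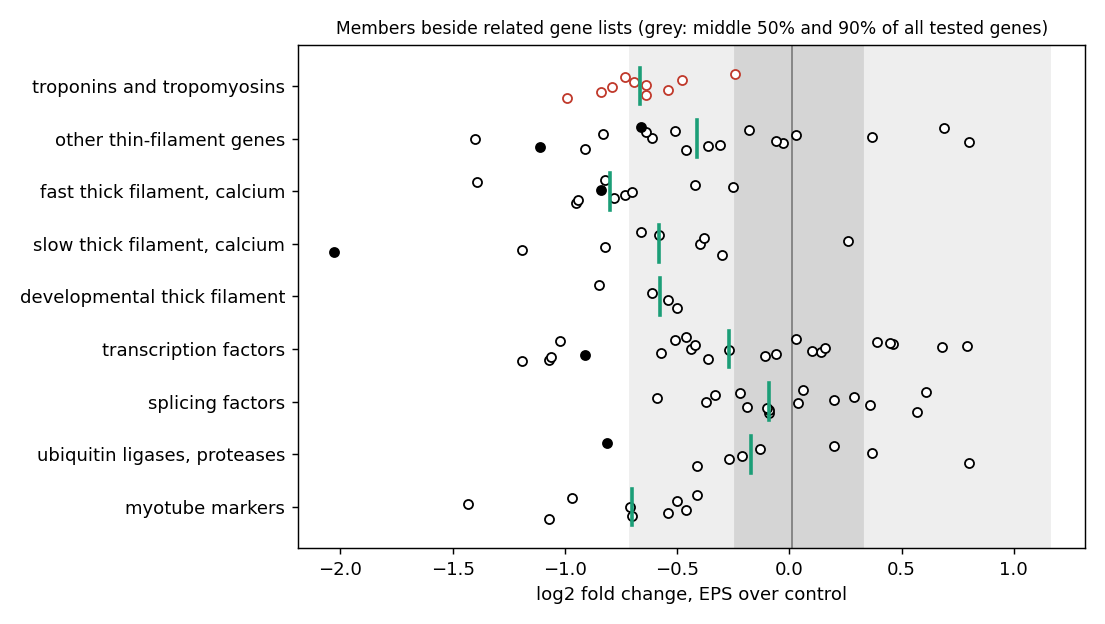
Log2 fold change of EPS over control for the 10 troponins and tropomyosins (red) and the genes of related lists (black), by edgeR without the block; filled points passed an adjusted p of 0.05, green bars are list medians, and grey bands hold the middle 50% and 90% of all tested genes. The 10 members lie between -0.99 and -0.24 with a median of -0.67.

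The 10 transcripts varied together over the libraries. Over the 8 libraries Pearson's r of log2 CPM between members ranged from 0.334 to 0.989 with a median of 0.907 over the 45 pairs of genes, and over the 7 libraries without control replicate 2 from 0.520 to 0.996 with a median of 0.952. The libraries are of 2 groups with different means, so these values are descriptions. Among 10813 other genes with a mean of at least 5 CPM, the 5 whose log2 CPM followed the members' mean most closely were Ccdc80 (r = 0.994), Myog (0.990), Snapin (0.986), Smim5 (0.984) and Svbp (0.983), over 8 libraries. Myog, which encodes the differentiation factor myogenin, was at 462, 290.1, 740.2 and 775 CPM in EPS, against 1277, 1298, 1130.0 and 1068 CPM in control. Its groups did not overlap, and the log2 fold change was -1.07 (SE 0.29, edgeR adjusted p = 0.0767; with the block -1.16, adjusted p = 0.0154). Ccdc80, a secreted matrix protein, averaged 355 CPM ± 146 in EPS and 663 CPM ± 30.3 in control (SD, n = 4 each; edgeR adjusted p = 0.118).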

How the data were processed

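RNA of 8 libraries (4 EPS, 4 control; 16 GEO samples, 2 lanes per library) was sequenced after a stranded total-RNA preparation, per the labels' protocols. Tools named in the submitters' processing notes are Cuffdiff 2.2.1, Cufflinks and STAR 2.5.1, and the build is mm10. The deposited table holds, per the file headers, estimated counts (fragments per gene and replicate, not scaled) and FPKM values after the authors' scaling; no source used here gives the annotation release or strand setting. Counts were rounded (93.3% of those above 0 were whole). Symbols and positions came from GENCODE M21 (same build), matched for 48051 of 48432 identifiers. The 46 genes skipped for excess fragments in either group entered neither library sizes nor tests; no member was among them.

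Genes were filtered with filterByExpr (minimum count 10, minimum total 15), and library sizes were adjusted with TMM factors. The test was the quasi-likelihood F test of edgeR on all 8 libraries without covariates (edgeR 4.0.16, limma 3.58.1, R 4.3.3), with Benjamini-Hochberg adjustment over 13987 genes and a threshold of 0.05. Alternatives were DESeq2 1.42.0, other scalings, no filter, limma on log2(FPKM + 0.1) or log2(FPKM + 1), the replicate block, length and GC offsets (splines with 4 degrees of freedom; 99.7% of tested genes had a value) and leaving out each library. Each SE is the log2 fold change divided by the root of F, an approximation. Log2 CPM has a prior count of 2. On simulated counts (13817 genes) the test called 33 of 99 genes changed 2-fold and 78 of 96 changed 4-fold, with 11 unchanged genes called.

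Same-numbered EPS and control libraries deviated together from their group means (r = 0.300, 0.214, 0.286 and 0.297 for numbers 1 to 4), so the numbers were taken to pair the libraries. What a number marks is not stated in the labels. EPS replicate 3 with control replicate 4 (r = 0.253) and EPS replicate 4 with control replicate 3 (0.231) were above the value of number 2. These values therefore do not clearly tell numbers 3 and 4 apart as pairs. A count of 0 allows up to 3 fragments, which is 0.146 to 0.239 CPM in 7 libraries and 8.68 CPM in control replicate 2; limits and intervals cover counting error only. The members and lists were chosen with earlier results of these data known. Named genes were the 10 members; up to 4 called genes of each related list, or its most abundant tested gene; and the 5 genes most alike in pattern.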

Additional observations from a re-analysis of the deposited data

Results flagged for a closer look

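In 36 sets of 4 libraries (20 of transcript levels and 16 of ratios), 6 had 1 library whose gap to the nearest other exceeded Dixon's 95% critical value as a share of the group's range, where chance gives about 1 set in 20, and sets that share a gene or library are not independent. Tnni1 was at 625 CPM in control replicate 2, with a gap of 0.867 of the range. The log2 ratio of Tnni2 to Tnni1 was 0.13 in that same library, with a gap of 0.845, and -1.01 in EPS replicate 2, with a gap of 0.839. Tpm3 was low in the replicates numbered 1, at 174 CPM in EPS (gap 0.868) and 243 CPM in control (gap 0.901). The log2 ratio of Tpm1 to Tpm3 was 2.27 in EPS replicate 2, with a gap of 0.873.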

How the results depend on the processing

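All 10 members kept a negative log2 fold change under each of the 19 alternatives. Members called as lower numbered 0 in the fit without covariates (0.758% of all tested genes), 5 with DESeq2 (1.95%) and 8 with the replicate block (4.78%). They numbered 8 with the replicate block without pair 2 (8.23% of all genes), a fit chosen after seeing the data. With no filter on low counts there were 3, where 162 of all genes were lower. With length and GC offsets and the replicate block there were 2, where 710 of all genes were lower. There were 0 to 1 when 1 library was left out, where 22 to 167 of all genes were lower. Genes called higher and lower numbered 322 and 106 (75.2% higher). They were 667 and 289 with DESeq2, 94 and 29 with limma on log2(FPKM + 0.1), 130 and 48 with limma on log2(FPKM + 1), 1023 and 668 with the replicate block (60.5% higher), 267 and 224 with length and GC offsets (54.4%), 625 and 710 with offsets and the replicate block (46.8%), and 1290 and 1167 with the block without pair 2 (52.5%). With no filter 447 were higher and 162 lower. Leaving out 1 library gave 92 to 427 higher and 22 to 167 lower; without EPS replicate 1 there were 111 and 28, without control replicates 1, 3 and 4 there were 98 and 22, 92 and 27, and 94 and 36, and without control replicate 2 there were 283 and 167. The cause of these shifts was not tested. The 8 paralogue ratios gave 0 calls with deposited FPKM, a prior count of 0.5 and length and GC offsets; the replicate block (smallest exact sign-flip p 0.125) and the tests without 1 library (smallest exact permutation p 0.0571) could not pass, so their 0 calls say nothing about stability. Without control replicate 2 the differences of 2 ratios changed sign: Tnni2 over Tnni1 (range without 1 library -0.47 to 0.01) and Tnnc2 over Tnnc1 (-0.18 to 0.05). A single completely separated ratio would reach an adjusted exact p of 0.229, so these tests cannot resolve a lone ratio. With 0.354 M fragments control replicate 2 counts each member with 98 to 1425 fragments.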

Other observations

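Trim54, a ubiquitin ligase of striated muscle that associates with microtubules, stood out among the 8 ubiquitin ligases and proteases after its values were seen. It averaged 97.3 CPM ± 23.9 in EPS and 52.0 CPM ± 20.6 in control (SD, n = 4 each). Its lowest control value, 22.7 CPM, came from the shallow control replicate 2. The log2 fold change was 0.80 (SE 0.26, edgeR adjusted p = 0.136). With the replicate block it was 0.75 (edgeR adjusted p = 0.0382), where 7.31% of all genes were called higher. Fbxo32 of the same list averaged 172 CPM ± 17.6 in EPS and 134 CPM ± 12.1 in control. It was not called (edgeR adjusted p = 0.208, with the block 0.106). Smooth muscle markers other than Acta2 had negative log2 fold changes in all 4 tested genes, Cnn1, Tagln, Smtn and Lmod1, from -1.15 to -0.67, with 0 called by edgeR. With Acta2, 5 of 5 were lower at an unadjusted p of 0.05, against 6.33% of all genes, and DESeq2 called 3 of 5, against 1.95%. Tagln, Smtn and Lmod1 were called as lower by edgeR with the block (adjusted p = 0.0183, 0.00729 and 0.0282), against 4.78% of all genes.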
